A study of Mus musculus with 12 samples.

Results

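The genes described are 9 members of the oxidative stress response governed by NRF2, the transcription factor that Nfe2l2 encodes. They were taken from a written list: Nfe2l2, Keap1, Nqo1, Hmox1, Gclc, Gclm, Gsr, Txnrd1 and Srxn1. The rule held no measured value, but the list was chosen with earlier results of these data known. All 9 were found among 29522 genes with a value in every library, and all 9 were among the 13511 genes tested. RNA had been sequenced from mouse T helper 17 (Th17) cells, a CD4+ T cell type that makes interleukin-17, in a study of tryptophan catabolites made by the microbiota and of statins in colorectal cancer. All 4 groups started from naive CD4+ T cells from spleens of wild-type C57BL/6J mice that were activated with a CD3/CD28 cocktail and grown in Th17 differentiation medium. One group received vehicle, one ILA at 200 uM, one GSK805 at 0.5 uM, and one both compounds at those doses, with 3 libraries per group. ILA is read as indole-3-lactic acid, a bacterial product of tryptophan, while GSK805 inhibits RORγt, the transcription factor that defines Th17 cells. The labels give neither the length of treatment nor the age, sex or number of mice. They call the replicates biological without naming animals, so the spread that the p-values rest on may be technical.

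NRF2 is controlled mainly at the level of its protein. KEAP1 holds it to a CUL3 ubiquitin ligase that marks it for degradation, and oxidants or electrophiles that modify KEAP1 let NRF2 accumulate, pair with a small MAF protein and bind antioxidant response elements in the promoters and enhancers of its targets. The targets make and recycle glutathione, reduce thioredoxin and sulfiredoxin substrates, break down haem and reduce quinones. Activated T cells need glutathione to grow, and NRF2 and the aryl hydrocarbon receptor (AhR), a sensor of tryptophan metabolites, share some targets, among them Nqo1.

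Values are FPKM (fragments per kilobase of gene per 1 M mapped reads), which allow levels to be compared between genes of different length. The libraries held between 17.84 M and 23.49 M reads as recovered from the FPKM, and within each group they correlated at 0.983 or more over tested genes. Cyp1a1, an AhR target, averaged 25.0 ± 1.96 FPKM with vehicle and 100.2 ± 9.60 with ILA, and Cyp1b1, another, 4.50 ± 0.414 and 68.0 ± 5.05 (SD, n = 3 each). Il17a averaged 756 ± 107 FPKM with vehicle, 159 ± 11.5 with ILA, 109 ± 12.2 with GSK805 and 40.1 ± 4.75 with both (SD, n = 3 each). The summed FPKM of 6 T cell markers ran from 262 to 278 with vehicle, 525 to 557 with ILA, 278 to 298 with GSK805 and 464 to 495 with both. The summed FPKM of 6 Th17 markers ran from 1243 to 1530, 448 to 492, 375 to 426 and 186 to 211 in the same order. ILA replicate 2 stood apart by its erythroid markers, with a summed 46.3 FPKM against at most 0.685 in every other library. Markers of other cells summed to 5.25 to 8.62 FPKM for B cells, 1.24 to 5.47 for CD8 T and NK cells and 3.46 to 11.4 for stromal cells, the last nearly all Pecam1 and highest with ILA. The CD8 T and NK sum, mostly Cd8b1, ran from 4.07 to 5.47 with vehicle, 1.24 to 1.61 with ILA, 3.84 to 4.43 with GSK805 and 1.83 to 2.00 with both. The B cell sum ran from 5.72 to 6.41, 8.16 to 8.62, 5.25 to 7.44 and 7.12 to 8.56 in the same order. The part of these differences in the results below was not tested. In bulk RNA, fewer cells of a type and less RNA per cell cannot be told apart, and this holds for every value below.

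The sequence before the start site is shown for the member that moved most, Srxn1, for Nqo1, the textbook quinone target of both NRF2 and AhR, and for the regulator Nfe2l2 itself. RefSeq windows on GRCm38.p6 were matched for 6 of the 9 members, and Hmox1, Gclc and Gsr are named only. Each window holds the 250 bases before the annotated start, 5′ to 3′ on the gene's strand, and lies at chr2:152105274-152105523 (plus strand) for Srxn1, chr8:107403206-107403455 (minus strand) for Nqo1 and chr2:75704664-75704913 (minus strand) for Nfe2l2. Capitals mark the core of the antioxidant response element, TGANNNNGC on either strand.
Srxn1: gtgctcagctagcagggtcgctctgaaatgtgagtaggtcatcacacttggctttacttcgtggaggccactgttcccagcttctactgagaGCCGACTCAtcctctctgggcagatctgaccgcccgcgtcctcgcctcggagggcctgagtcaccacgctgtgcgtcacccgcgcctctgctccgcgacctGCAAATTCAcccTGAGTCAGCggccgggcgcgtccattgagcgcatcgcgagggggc
Nqo1: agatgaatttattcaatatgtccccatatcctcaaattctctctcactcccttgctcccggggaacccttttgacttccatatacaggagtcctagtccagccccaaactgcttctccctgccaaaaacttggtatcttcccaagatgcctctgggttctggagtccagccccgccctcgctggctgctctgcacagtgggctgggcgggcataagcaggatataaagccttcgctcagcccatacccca
Nfe2l2: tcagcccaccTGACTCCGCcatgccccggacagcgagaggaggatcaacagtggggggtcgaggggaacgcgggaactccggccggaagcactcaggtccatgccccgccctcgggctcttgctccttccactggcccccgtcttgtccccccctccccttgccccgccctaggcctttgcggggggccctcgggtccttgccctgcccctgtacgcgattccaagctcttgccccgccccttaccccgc
The Srxn1 window held 3 matches, at positions -158 and -57 on the opposite strand and -45 on the gene's strand, where -1 is the base before the start and a position gives the match's first base on the gene's strand. The match at -45 overlaps a match to the AP-1 letters TGANTCA, and a second TGANTCA lies at -102. The Nfe2l2 window held 1 match at -240, of the stricter form TGACNNNGC, and the Nqo1 window held none of the 4 motifs searched on both strands. The fourth, the AhR core GCGTG, was found in the windows of Keap1, Gclm, Txnrd1 and Srxn1. Keap1, Gclm and Txnrd1 also held the TGANNNNGC core, Txnrd1 in 2 of its 3 alternative windows. The match in Gclm, at -134, and that in window 2 of Txnrd1, at -92, were of the stricter form as well. Of 32851 windows of the same length, 35.2% held TGANNNNGC, 10.2% TGACNNNGC, 6.75% TGANTCA and 28.2% GCGTG. A match is a description of letters and not of a bound site, and a missing match speaks only for the 250 bases searched.

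With ILA against vehicle, the 9 genes moved in opposite directions. Nfe2l2, Keap1 and Gsr rose, Srxn1, Hmox1 and Gclc fell, and Nqo1, Gclm and Txnrd1 did not pass the test, which was limma's moderated test with adjusted p under 0.05 over all tested genes. These 6 of 9 calls stand beside 57.9% of all tested genes called in that comparison, 33.9% higher and 24% lower. The groups did not overlap for 7 of the 9 genes, beside 62.8% of all genes, and the median log2 change was 0.06 for the members and 0.06 for all genes. The median of all genes with ILA was -0.03 under quantile normalization and -0.07 under median centring of the libraries, and the share of its calls that were higher went from 58.6% to 46.3% and 40.9%. Directions of the 9 genes are given on the deposited scale. With GSK805 against vehicle, Keap1, Nqo1, Gsr and Txnrd1 rose and Srxn1 fell, 5 of 9 beside 22.8% of all genes (15.7% higher, 7.08% lower; 68.9% of the calls were higher, and 40.3% with median centring). Only 3 members were called under quantile normalization and 3 under median centring, and 2 without vehicle replicate 2, without a filter or when only those groups were fitted, so this count rests on the settings. The calls over all genes fell too, from 3076 of 13511 to 2371 and 2760 under these scalings. They were 2252 of 13540 without vehicle replicate 2, 2197 of 29522 without a filter and 2247 of 12784 with only those groups. The median change with GSK805 was 0.20 for the members and 0.05 for all genes, and 5 members did not overlap, beside 38.7% of genes. With both compounds against vehicle, Nfe2l2, Keap1, Nqo1 and Gsr rose and Hmox1 and Srxn1 fell, 6 of 9 beside 52.1% of all genes (31.8% higher, 20.3% lower; 61.1% of the calls were higher, and 40.2% with median centring), and 6 did not overlap, beside 59.2%. Their median change was 0.22 against 0.06 for all genes. Nqo1 reached the limit for testing only through treated groups, and over the 8 other members 4 were called with GSK805 and 5 with both. These 3 comparisons share the vehicle libraries. Shares called with ILA and with both compounds were near the background, so the counts say little of these 9 genes, and their values follow one by one.

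**Figure D1:**
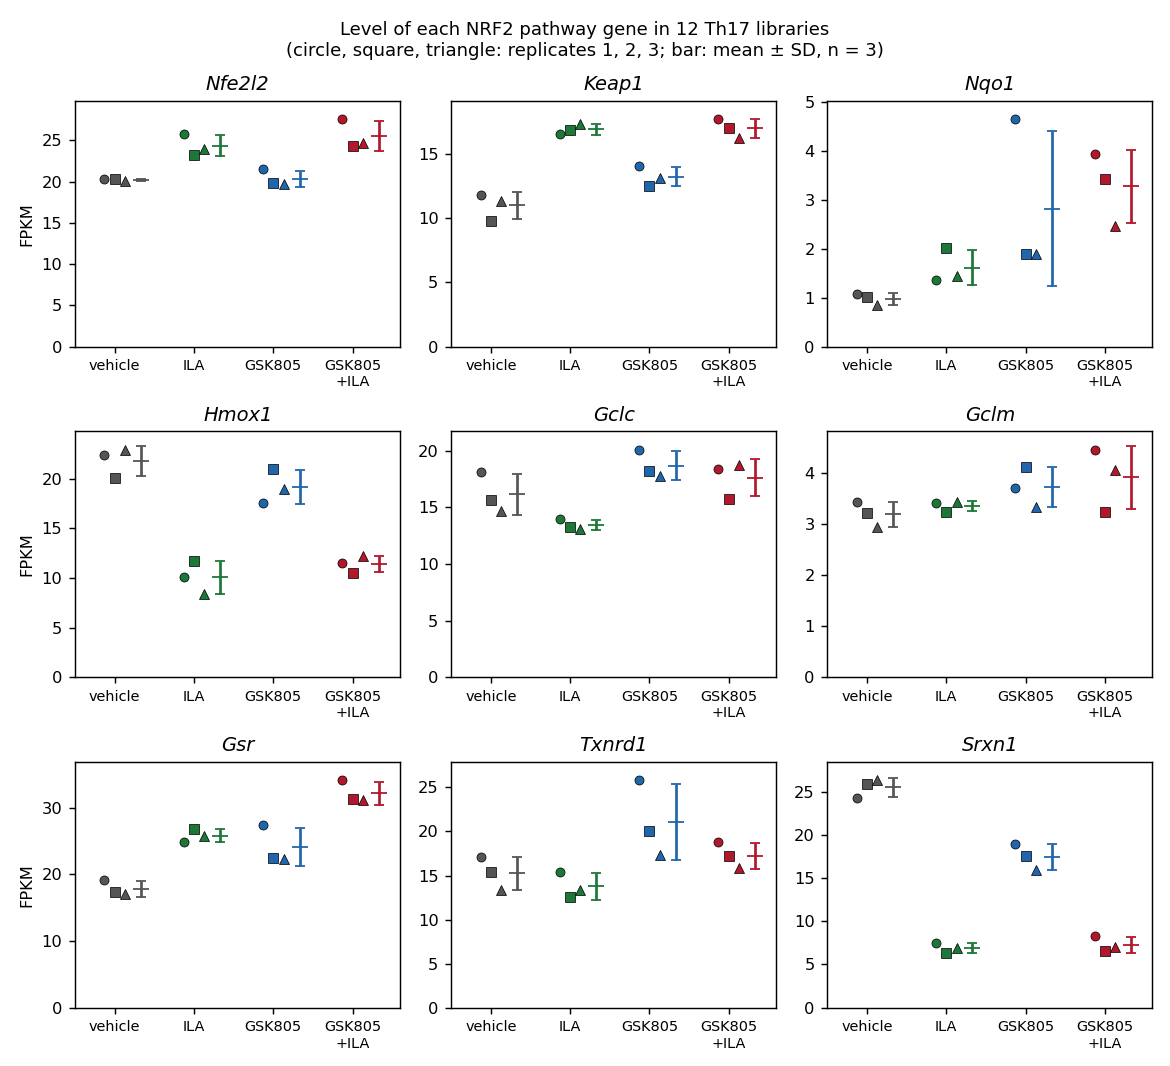
FPKM (vertical axes, starting at 0) of the 9 genes in 12 libraries, by group (horizontal axes). Circles, squares and triangles are replicates 1, 2 and 3, and the bars give mean ± SD (n = 3). Srxn1 lies between 24.3 and 26.3 FPKM with vehicle and between 6.28 and 8.30 wherever ILA was present.

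Nfe2l2 (chr2:75675513-75704641, minus strand, GRCm38), the gene of NRF2, was at 20.3, 20.3 and 20.1 FPKM in the 3 vehicle libraries and at 25.8, 23.3 and 24.0 with ILA. It was at 21.5, 19.9 and 19.7 FPKM with GSK805 and at 27.6, 24.3 and 24.7 with both compounds. Every library with ILA lay above every library without it. With ILA alone Nfe2l2 rose 1.19-fold on the scale of FPKM + 1 (log2 change 0.25, SE 0.06, limma adjusted p = 0.00213). With median centring of the libraries the log2 change was 0.12 and the call was lost (adjusted p = 0.0839). In the presence of GSK805, ILA raised it 1.24-fold (log2 change 0.31, SE 0.06, limma adjusted p = 0.00101). GSK805 alone gave a log2 difference of 0.01 with a 95% interval from -0.11 to 0.13 (limma adjusted p = 0.938).

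Keap1 (chr9:21229730-21239361, minus strand), which encodes the inhibitor of NRF2, was at 11.8, 9.77 and 11.3 FPKM with vehicle and at 16.5, 16.8 and 17.3 with ILA. It was at 14.0, 12.5 and 13.1 FPKM with GSK805 and at 17.7, 17.0 and 16.2 with both. The vehicle libraries were lowest, the GSK805 libraries lay above them, and both ILA groups lay higher still without overlapping either. ILA raised Keap1 1.50-fold (log2 change 0.58, SE 0.07, limma adjusted p = 1.7e-05). GSK805 raised it 1.19-fold (log2 change 0.25, SE 0.07, limma adjusted p = 0.0203). The GSK805 call was lost without vehicle replicate 2 (adjusted p = 0.0607) or GSK805 replicate 1 (0.0792) and under 4 of the alternative settings, where adjusted p ran from 0.054 to 0.0796. With GSK805 present, ILA raised it 1.27-fold (log2 change 0.34, limma adjusted p = 0.00189). An antisense gene, Gm16754, overlaps Keap1, and how the counting used strand is not given, so reads of the pair cannot be told apart.

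Nqo1 (chr8:107388225-107403206, minus strand), the NADPH quinone reductase, was the member with the lowest level. It was at 1.07, 1.00 and 0.843 FPKM with vehicle, which is 27 to 37 reads per library, and at 1.37, 2.02 and 1.44 with ILA. With GSK805 it was at 4.65, 1.90 and 1.90 FPKM, and with both compounds at 3.94, 3.41 and 2.47. All treated libraries lay above the vehicle libraries, and GSK805 replicate 1 stood far above the other 2 of its group. Its vehicle mean of 0.974 FPKM was under the limit of 1 for testing, so Nqo1 was tested only through groups in which it was higher and its calls carry no weight as support. GSK805 raised it 1.84-fold on the FPKM + 1 scale (log2 change 0.88, SE 0.24, limma adjusted p = 0.0215), a scale that understates low genes, and the ratio of mean FPKM was 2.89. This call was lost without vehicle replicate 2 (adjusted p = 0.0551), without vehicle replicate 3 (0.0694), with no filter (0.0594) and with only the groups compared (0.0638). Both compounds raised it 2.14-fold (log2 change 1.10, SE 0.24, limma adjusted p = 0.00231). ILA alone gave a log2 difference of 0.40 with a 95% interval from -0.12 to 0.92 (limma adjusted p = 0.171), and it passed when only the vehicle and ILA libraries were fitted (0.0368).

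Hmox1 (chr8:75093621-75100589, plus strand), the inducible haem oxygenase, was at 22.4, 20.0 and 23.0 FPKM with vehicle and at 10.1, 11.7 and 8.39 with ILA. It was at 17.6, 21.0 and 18.9 FPKM with GSK805 and at 11.5, 10.5 and 12.2 with both. The 6 libraries with ILA lay below the 6 without it. ILA lowered Hmox1 2.07-fold (log2 change -1.05, SE 0.10, limma adjusted p = 6.1e-06), and 1.62-fold in the presence of GSK805 (log2 change -0.70, limma adjusted p = 3.2e-04). GSK805 alone gave a log2 difference of -0.18 with a 95% interval from -0.41 to 0.05 (limma adjusted p = 0.253). Macrophages and erythroid cells also carry Hmox1. The summed level of 7 myeloid markers ran from 7.19 to 8.93 FPKM with vehicle and 10.8 to 12.5 with ILA. It ran from 7.13 to 7.71 with GSK805 and 9.97 to 12.7 with both. The higher sums with ILA lay in Cd68, which averaged 3.75, 8.94, 3.92 and 7.88 FPKM in the same order. Csf1r averaged 3.46, 2.33, 3.07 and 3.05 FPKM, and Cd14 0.561, 0.132, 0.249 and 0.217. Of those 7, 5 were under 1 FPKM in every group and Adgre1, which defines macrophages, was at most 0.0711 FPKM in any library. The part of myeloid RNA in the result was not tested. ILA replicate 2, the library with haemoglobin RNA, had the highest Hmox1 of its group, and without it the log2 change with ILA was -1.16 (limma adjusted p = 4.8e-06).

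The glutathione genes split. Gsr (chr8:33652523-33698163, plus strand), the reductase that regenerates glutathione, was at 19.2, 17.3 and 17.0 FPKM with vehicle and at 24.8, 26.8 and 25.8 with ILA. It was at 27.3, 22.4 and 22.3 FPKM with GSK805 and at 34.1, 31.2 and 31.1 with both. Vehicle was lowest and the combination highest, with no overlap with any other group. ILA raised Gsr 1.42-fold (log2 change 0.51, SE 0.08, limma adjusted p = 1.4e-04) and GSK805 1.33-fold (log2 change 0.41, SE 0.08, limma adjusted p = 0.00329). Both raised it 1.76-fold (log2 change 0.82, SE 0.08, limma adjusted p = 4.9e-06). The combination was 1.24-fold above ILA alone (log2 change 0.31, limma adjusted p = 0.0177), a call lost without ILA replicate 1 (adjusted p = 0.0633), without replicate 1 of the combination (0.0662) and with no filter (0.0503).

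Gclc (chr9:77754535-77794485, plus strand), the catalytic subunit of glutamate-cysteine ligase, which makes the first bond of glutathione, was at 18.2, 15.7 and 14.7 FPKM with vehicle and at 13.9, 13.3 and 13.1 with ILA. It was at 20.1, 18.2 and 17.8 FPKM with GSK805 and at 18.4, 15.8 and 18.7 with both. ILA libraries were the lowest of the 4 groups and overlapped none of them. ILA lowered Gclc 1.19-fold (log2 change -0.25, SE 0.08, limma adjusted p = 0.0242). The call was lost without vehicle replicate 1 (adjusted p = 0.098), ILA replicate 2 (0.0601) or ILA replicate 3 (0.0681), and with no filter (0.0602). The combination was 1.29-fold above ILA alone (log2 change 0.37, SE 0.08, limma adjusted p = 0.0114). With GSK805 alone the log2 difference from vehicle was 0.20, with a 95% interval from 0.02 to 0.38 (limma adjusted p = 0.106). That difference passed with voom on recovered reads (adjusted p = 0.0241) and without vehicle replicate 1 (0.026).

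Gclm (chr3:122245557-122270732, plus strand), the modifier subunit of the same ligase, passed the test in none of the 6 comparisons. It ranged from 2.94 to 3.43 FPKM with vehicle, 3.23 to 3.42 with ILA, 3.34 to 4.11 with GSK805 and 3.24 to 4.46 with both, and all 4 ranges overlapped. The ILA difference was 0.06 on the log2 scale, with a 95% interval from -0.16 to 0.27 (limma adjusted p = 0.646). The combination gave the widest difference from vehicle, 0.22 with an interval from 0.01 to 0.44 (limma adjusted p = 0.0731), which passed with voom (0.0295) and without replicate 2 of the combination (0.0117). Gclm shares positions with the pseudogene Gm6061 and the opposite-strand gene Gm17494, so its values are less certain.

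Txnrd1 (chr10:82833951-82897712, plus strand), the cytosolic thioredoxin reductase, was at 17.1, 15.4 and 13.4 FPKM with vehicle and at 15.4, 12.5 and 13.4 with ILA. It was at 25.8, 20.1 and 17.4 FPKM with GSK805 and at 18.8, 17.2 and 15.8 with both. The GSK805 libraries lay narrowly above the vehicle libraries, and GSK805 replicate 1 was the highest of all 12. GSK805 raised Txnrd1 1.35-fold (log2 change 0.43, SE 0.13, limma adjusted p = 0.0408). The call was lost in 10 of 15 alternatives, over which adjusted p ran from 0.00316 to 0.142. It was lost with no filter (0.103), quantile normalization (0.079), median centring (0.0838), no trend or robust moderation (0.051), only the groups compared (0.1) and voom (0.0671), and without vehicle replicate 2 (0.0877), vehicle replicate 3 (0.142), GSK805 replicate 1 (0.13) or GSK805 replicate 2 (0.0742). ILA gave a log2 difference of -0.14 with a 95% interval from -0.43 to 0.16 (limma adjusted p = 0.411). The genes Eid3, Gm38560 and Gm47073 overlap Txnrd1, and reads of the latter 2, on the opposite strand, cannot be told apart from its own.

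Srxn1 (chr2:152105516-152111376, plus strand) encodes sulfiredoxin, which restores overoxidised peroxiredoxins. It was at 24.3, 25.9 and 26.3 FPKM with vehicle and at 7.51, 6.28 and 6.92 with ILA. It was at 19.0, 17.5 and 16.0 FPKM with GSK805 and at 8.30, 6.55 and 7.02 with both. GSK805 lay below vehicle, and both ILA groups lay below GSK805 and overlapped each other. ILA lowered Srxn1 3.36-fold (log2 change -1.75, SE 0.09, limma adjusted p = 2.8e-08), the largest change of the 9 genes in any comparison. GSK805 lowered it 1.44-fold (log2 change -0.52, SE 0.09, limma adjusted p = 0.00169), and both compounds 3.21-fold (log2 change -1.68, limma adjusted p = 5.2e-08). These calls held in all alternatives run. Its window above held 3 matches to TGANNNNGC and 0 to the stricter TGACNNNGC. Of all windows, 35.2% held TGANNNNGC, and a link between the matches and the change was not tested.

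**Figure D2:**
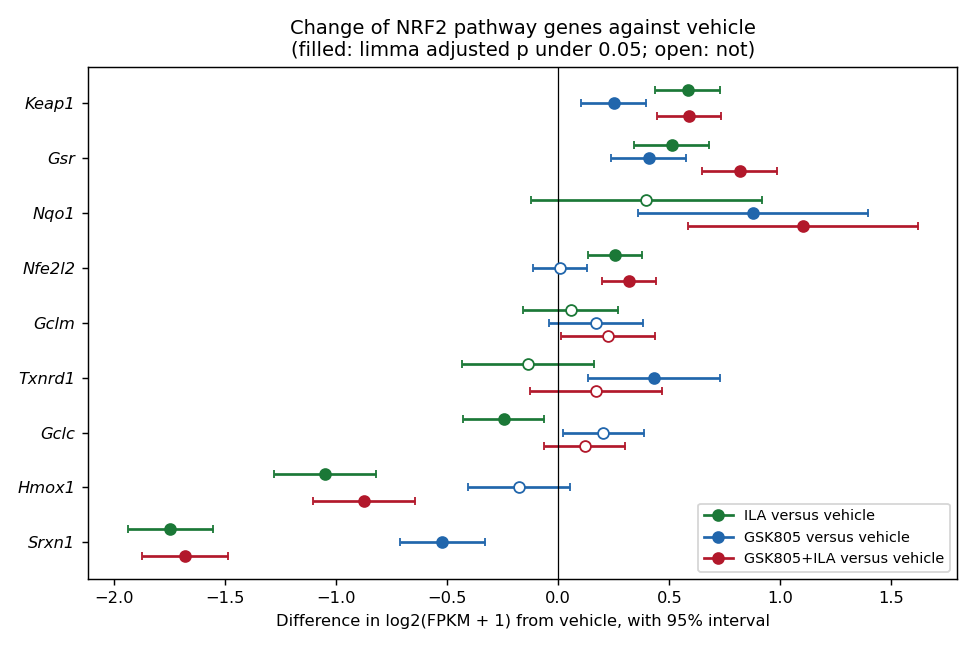
Difference from vehicle in log2(FPKM + 1) (horizontal axis) for each gene (vertical axis) with ILA, GSK805 and both, with 95% intervals from the limma fit. Filled points have an adjusted p under 0.05. Srxn1 lies at -1.75, -0.52 and -1.68, and Gsr at 0.51, 0.41 and 0.82.

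Whether GSK805 altered the response to ILA was asked by the interaction, the ILA change with GSK805 present minus the ILA change without it. Srxn1 was the member that passed, 1 of 9 beside 13.8% of all genes (5.15% higher, 8.7% lower; 37.2% of the calls were higher, and 63.2% with median centring). ILA lowered Srxn1 by a log2 change of -1.75 without GSK805 and of -1.16 with it (SE 0.09 each). The difference was 0.59 (SE 0.12, 95% interval 0.32 to 0.86, limma adjusted p = 0.0116), and adjusted p ran from 0.000870 to 0.0353 over the alternatives. The starting level was lower with GSK805, 17.5 ± 1.50 against 25.5 ± 1.09 FPKM with vehicle (SD, n = 3), while the level reached with ILA was 7.29 ± 0.906 with GSK805 and 6.90 ± 0.618 without it (SD, n = 3). The combination differed from ILA alone by 0.07 on the log2 scale, with a 95% interval from -0.13 to 0.26 (limma adjusted p = 0.646). Hmox1 had a difference of 0.35 in the same direction, with an interval from 0.03 to 0.68, and did not pass (limma adjusted p = 0.135). Keap1 had -0.24, with an interval from -0.45 to -0.04 (limma adjusted p = 0.109), and passed with voom (0.0414). The other 6 genes had differences between -0.17 and 0.16 and adjusted p from 0.385 to 0.994.

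**Figure D3:**
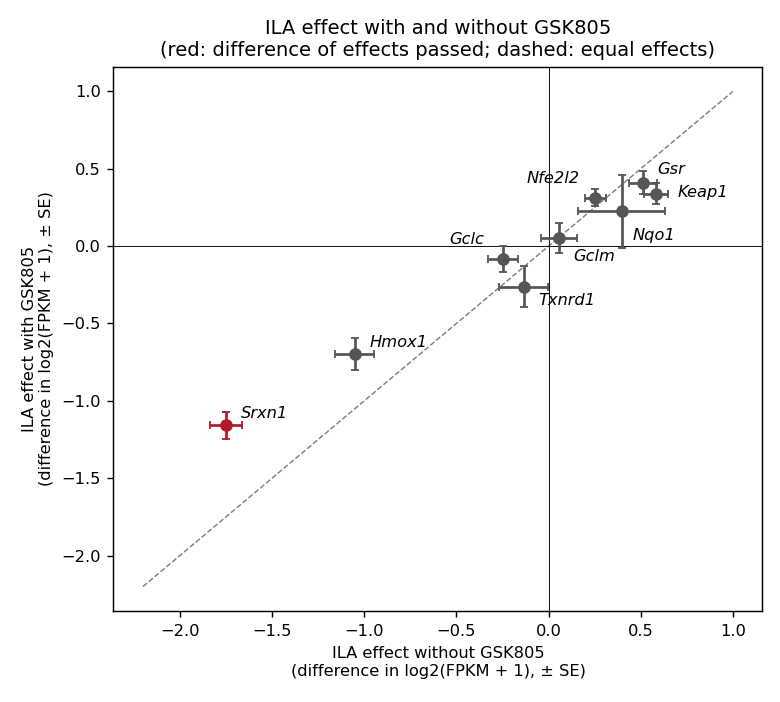
Change with ILA in log2(FPKM + 1) without GSK805 (horizontal axis) and with GSK805 (vertical axis) for the 9 genes, with SE bars. The dashed line marks equal changes, and Srxn1, in red, is the gene whose difference passed, at -1.75 and -1.16.

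Added to GSK805, ILA changed 5 of the 9 genes, beside 39.5% of all genes (22% higher, 17.5% lower; 55.7% of the calls were higher, and 41.6% with median centring): Nfe2l2, Keap1 and Gsr rose and Hmox1 and Srxn1 fell. Srxn1 was 2.23-fold lower there (log2 change -1.16, limma adjusted p = 2.2e-06) and Gsr 1.33-fold higher (log2 change 0.41, limma adjusted p = 0.00137). The groups did not overlap for 5 of the 9, beside 52.1% of all genes. Added to ILA, GSK805 changed 2 of the 9, Gclc and Gsr, both higher, beside 18.6% of all genes (9.92% higher, 8.64% lower). Its log2 difference there was positive for all 9 genes on the deposited scale, though for Keap1 it was negative under quantile normalization, for Keap1 also without ILA replicate 1, and for Keap1 and Srxn1 without replicate 1 of the combination. The median was 0.18 against 0.02 for all genes, and 4 of the 9 did not overlap, beside 37.2% of all genes. Nqo1 was 1.63-fold higher in that comparison without overlap between the groups, and did not pass (log2 change 0.70, limma adjusted p = 0.0612). It passed under quantile normalization (0.046), with the replicate block (0.0471), with only the groups compared (0.0296) and with voom (0.0134). Txnrd1 had a log2 difference of 0.31, also without overlap, and did not pass (limma adjusted p = 0.142), though it did with the replicate block (0.0187).

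The order of levels among the members changed between groups. With vehicle, Srxn1 was the highest of the 9 at 25.5 ± 1.09 FPKM and overlapped no other member, and Hmox1, at 21.8 ± 1.54, overlapped Nfe2l2 (SD, n = 3). With ILA, Gsr was the highest at 25.8 ± 0.956 FPKM, overlapping Nfe2l2 at 24.3 ± 1.29, and Srxn1 was in place 7 (SD, n = 3). With GSK805, the members from Gsr (24.0 ± 2.87) down through Txnrd1, Nfe2l2, Hmox1, Gclc and Srxn1 (17.5 ± 1.50) each overlapped the next (SD, n = 3). With both, Gsr at 32.1 ± 1.70 FPKM stood above Nfe2l2 at 25.5 ± 1.79 without overlap (SD, n = 3). Gclm and Nqo1 were in places 8 and 9 in all 4 groups.

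Across the 12 libraries the members followed more than 1 course. Srxn1 and Hmox1 had a Pearson correlation of 0.943 on log2(FPKM + 1), and Srxn1 and Keap1 one of -0.944. Keap1 and Gsr stood at 0.895, and Gclc and Txnrd1 at 0.836. These values describe 4 treatments of 3 libraries each, whose depth the genes share, and carry no test. Among 7166 protein-coding genes with a settled symbol (no Gm or Rik name) and 5 FPKM or more in a group, the nearest to Srxn1 were Sec11a, a signal peptidase subunit (0.991), Prps1, which makes phosphoribosyl pyrophosphate (0.99), and Gmps, of guanine nucleotide synthesis (0.99). The nearest to Keap1 were Limk2 (0.99), Nsd3 (0.987) and Lyst (0.986), and to Hmox1 Pde4b (0.98), Ndel1 (0.978) and Sf3b6 (0.977). The nearest to Gsr were Eif4ebp2 (0.973), Mtif2 (0.972) and Camk2d (0.972). The nearest to Nfe2l2 were S1pr2 (0.945), Prkacb (0.943) and Ahrr (0.942), the last of them the repressor of AhR. Gclc was nearest to Mia3 (0.952), Simc1 (0.95) and Usp6nl (0.94), Nqo1 to Pvr (0.94), Stxbp3 (0.925) and Trmt5 (0.906), and Txnrd1 to Esco1 (0.912), Trrap (0.907) and Arfgef2 (0.907). Gclm, with its narrow range, had the weakest neighbours, Mrps24 (0.872), Limd1 (0.853) and Mier2 (0.849).

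The rest of the pathway was read from 7 companion lists of 90 genes without the members, 78 of them tested. With ILA, 38 rose and 26 fell (28 and 29 after median centring). The counts were 19 and 9 with GSK805 (7 and 13 after median centring) and 32 and 18 with both (22 and 28 after median centring). Of all tested genes, 33.9% were higher and 24% lower with ILA, 15.7% and 7.08% with GSK805, and 31.8% and 20.3% with both. After median centring, 3271 of the 13511 tested genes were higher and 4723 lower with ILA. They were 1112 and 1648 with GSK805, and 2985 and 4437 with both. These all-gene values stand beside the counts of each single list under the same scaling as well. Companions other than the 3 largest rises and falls of a comparison were chosen for naming after their values were seen. Of the 10 tested regulators and partners of NRF2, 8 fell with ILA, Dpp3 rose and Bach1 did not pass. Under quantile normalization or median centring 9 fell, where 4172 and 4723 of all 13511 tested genes were lower. Among those that fell were Sqstm1, the autophagy receptor that draws KEAP1 away from NRF2 (1.59-fold lower, limma adjusted p = 8.1e-07), the small MAF gene Mafk (1.56-fold lower, 2.7e-06) and Bach2, a repressor at the same elements (1.45-fold lower, 1.4e-06). Cul3, the ligase scaffold, was 1.24-fold lower (limma adjusted p = 3.6e-04). Dpp3, whose protein competes for KEAP1, was 1.32-fold higher (limma adjusted p = 1.6e-05). Keap1 rose in the same libraries in which Cul3 and Sqstm1 fell.

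Of 18 tested genes of glutathione synthesis and use, 11 rose and 2 fell with ILA (6 and 2 after median centring). The lipid peroxide reductase Gpx4 was 1.80-fold higher (limma adjusted p = 1.1e-05), and Chac1, which degrades glutathione, was 1.59-fold lower (limma adjusted p = 7.0e-06). Of 16 thioredoxin and peroxiredoxin genes, 5 rose and 7 fell with ILA. The largest companion changes named here and below are those among genes of at least 5 FPKM in a group whose groups did not overlap. With ILA the largest falls were all in this list. Txnrd3, a thioredoxin reductase, was at 5.53 ± 0.244 FPKM with vehicle and 1.75 ± 0.138 with ILA (SD, n = 3), and Txnip, which binds and inhibits thioredoxin, was at 53.0 ± 4.04 and 24.6 ± 1.16. Txnrd3 fell 2.38-fold (limma adjusted p = 1.9e-06), Txnip 2.11-fold (4.7e-08) and Sesn2, a stress-induced sestrin, 1.62-fold (7.2e-08). Its paralogue Sesn3 rose 2.65-fold, from 14.1 ± 0.603 to 39.0 ± 0.926 FPKM (SD, n = 3, limma adjusted p = 3.2e-09). Prdx1, a peroxiredoxin that sulfiredoxin repairs, was 1.49-fold lower (limma adjusted p = 6.7e-06).

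Of 9 NADPH supply genes 5 rose and 3 fell with ILA (3 and 3 after median centring), with the mitochondrial isocitrate dehydrogenase gene Idh2 at 2.12-fold higher (limma adjusted p = 5.5e-06) and G6pdx, of the pentose phosphate pathway, at 1.26-fold lower (limma adjusted p = 7.3e-04). Of 10 haem and iron genes 5 rose and 3 fell (3 and 3 after median centring). Slc48a1, a haem transporter, rose 1.83-fold (limma adjusted p = 7.5e-08), and Tfrc, the transferrin receptor, fell 1.38-fold (3.6e-05). Of 4 dismutase and catalase genes, Cat, Ccs and Sod1 rose and Sod2 fell. Cat was 2.02-fold higher (limma adjusted p = 7.7e-06). Of 11 quinone and carbonyl genes 8 rose and 2 fell, the latter being Osgin2 and Akr1a1. Ephx1, the microsomal epoxide hydrolase, was the largest companion rise in all 3 comparisons with vehicle. It averaged 0.941 ± 0.235 FPKM with vehicle, 4.71 ± 0.349 with ILA, 2.34 ± 0.526 with GSK805 and 6.18 ± 0.514 with both (SD, n = 3), and rose 2.95-fold, 1.71-fold and 3.71-fold (limma adjusted p = 7.3e-07, 0.00105 and 2.2e-07). Of 8 tested AhR targets, 5 rose and 1, Tiparp, fell with ILA (4 and 2 after median centring, 5 and 0 without ILA replicate 2). That list includes Nfe2l2, Nqo1 and the checks Cyp1a1 and Cyp1b1. The vehicle mean of Ephx1 was under 1 FPKM, so, as for Nqo1, it was tested only through groups in which it was higher. It also met the limit of 5 FPKM for naming only through the combination. Its place as the largest companion rise therefore carries no weight as support.

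**Figure D4:**
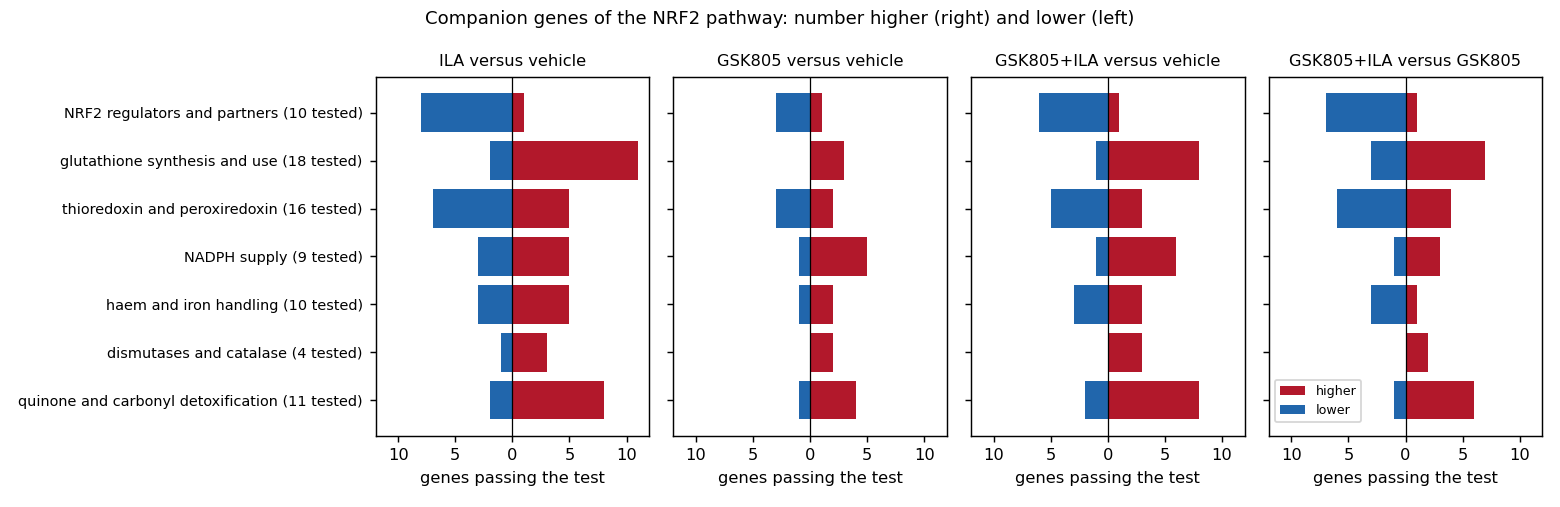
Number of companion genes passing the test (horizontal axes, higher to the right and lower to the left) in each of 7 lists (vertical axis) for 4 comparisons. Of 10 tested NRF2 regulators and partners, 8 lie to the left with ILA, and of 11 quinone and carbonyl genes, 8 lie to the right. Over all tested genes, 33.9% were higher and 24% lower with ILA.

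With GSK805, the largest companion rises after Ephx1 were Gstt2, a glutathione transferase (1.51-fold, limma adjusted p = 6.5e-04), and Esd, which acts on a glutathione adduct of formaldehyde (1.41-fold, 0.0462). The largest falls were Txnip (1.28-fold, limma adjusted p = 0.00155), Mafk (1.18-fold, 0.0146) and Pgd (1.18-fold, 0.00799). With both compounds against vehicle, Idh2 (2.00-fold) and Sesn3 (1.97-fold) followed Ephx1 among the rises, and Txnip (2.15-fold), Txnrd3 (1.67-fold) and Sesn2 (1.63-fold) were the largest falls. ILA added to GSK805 raised 24 of the 78 tested companions and lowered 21, beside 22% and 17.5% of all tested genes. Under quantile normalization 20 rose and 23 fell, beside 2487 and 2832 of all 13511 tested genes. After median centring the counts were 15 and 27, beside 2362 and 3317 of all tested genes. The largest changes when ILA was added were rises of Ephx1 (2.16-fold), Gpx4 (1.70-fold) and Sesn3 (1.60-fold) and falls of Txnrd3 (1.78-fold), Txnip (1.68-fold) and Chac1 (1.47-fold). GSK805 added to ILA raised 13 and lowered 6, beside 9.92% and 8.64% of all tested genes. The largest rises then were those of Txnrd3 (1.42-fold), Prdx1 (1.34-fold) and Abcc1 (1.33-fold). The largest falls were those of Sesn3 (1.34-fold), Abhd4 (1.25-fold) and Prdx6 (1.18-fold). The interaction passed for 13 companions, 6 positive and 7 negative, beside 5.15% and 8.7% of all tested genes. The counts were 13 and 4 after median centring, beside 1289 and 750 of all 13511 tested genes. Without ILA replicate 2 they were 3 and 6, beside 525 and 849 of 13515 tested genes. Sesn3 had the largest interaction, -0.72 on the log2 scale (limma adjusted p = 4.3e-04): ILA raised it 2.65-fold without GSK805 and 1.60-fold with it. The next negative differences were those of Ugdh (-0.48) and Me2 (-0.46), and the largest positive ones, in the direction of Srxn1, those of Prdx3 (0.36), Mafk (0.33) and Txnip (0.32). Without ILA replicate 2, the ILA comparison gave 5 of the 9 members called, with Gclc lost, and 34 companions higher and 26 lower. Of 13515 tested genes, 4188 were then higher and 2984 lower. The comparison of the combination with ILA gave 2 members beside 1733 of all tested genes, and the interaction 1 beside 1374.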

How the data were processed

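RNA sequencing of 12 libraries, 3 in each of 4 groups given by the sample titles, was used as the authors deposited it, as FPKM per gene in 1 table per library. Per the submitters' processing notes, FastQC 0.11.2 and Bowtie were used with mm10. Not given in the sources used here are the Bowtie version, the counting program, its annotation and its use of strand. With exon lengths of GENCODE vM21 on GRCm38, 98.67% of values lay within 0.1 of a whole number of reads, which gave 17.84 M to 23.49 M reads per library.

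FPKM were taken to log2 after adding a pseudocount of 1, so fold changes are of FPKM + 1 and understate low genes. Genes averaging 1 FPKM or more in at least 1 group, 13511 in all, were fitted with limma 3.58.1 in R 4.3.3, with 1 mean per group over all 12 libraries, a variance trend and robust moderation. From this fit came 5 pairwise contrasts and an interaction contrast, adjusted by the Benjamini-Hochberg method over all tested genes and called below 0.05. The procedure was tested on simulated data. No test was made over the list of members.

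The members and the companion and marker lists were chosen with earlier results of these data known. All 9 members were named in every comparison. Companions were named by the 3 largest rises and falls among called genes of at least 5 FPKM in a group, without overlap of the groups except for the interaction. Other companions named were chosen after their values were seen. Cyp1a1, Cyp1b1 and Il17a were named as checks of the compounds, and the 3 most alike genes of each member by Pearson correlation. Alternatives were a pseudocount of 0.1, no filter, a filter at 5 FPKM, quantile normalization, median centring, limma without trend and robust moderation, a replicate block, only the groups compared, voom on recovered reads, and leaving out each library. Companion counts under other scalings and without ILA replicate 2 were added after seeing the data. Promoter windows came from RefSeq tables on GRCm38.p6, and coordinates from GENCODE vM21. Summaries used pandas 2.3.3 and numpy 2.4.6 and figures matplotlib 3.10.9, in Python 3.11.15.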

Additional observations from a re-analysis of the deposited data

Results flagged for a closer look

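The change of Srxn1 with ILA differed between cells without and with GSK805, by 0.59 on the log2(FPKM + 1) scale (SE 0.12, limma adjusted p = 0.0116). It was -1.75 without GSK805 and -1.16 with it. The interaction term tested the difference itself, and it had the same sign and passed in all alternatives run.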

How the results depend on the processing

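Over 843 recomputed values of single members, 778 kept their direction and their side of the threshold, 28 were no longer called, 14 became called, and 23 changed sign, none of them called before or after. The sign changed for Gclm with ILA against vehicle (log2 change -0.14 with quantile normalization, -0.080 with median centring), for Nfe2l2 with GSK805 (-0.033 and -0.070, and -0.030 to 0.029 with a library left out) and for Gclc with both compounds (-0.018 with median centring). It changed for Gclm when ILA was added to GSK805 (-0.039 with quantile normalization, -0.0062 with median centring, -0.026 to 0.156 with a library left out). When GSK805 was added to ILA it changed for Keap1 (-0.021 with quantile normalization, -0.023 to 0.038 with a library left out) and Srxn1 (-0.019 to 0.131 with a library left out). For the interaction it changed for Gclm (0.106 with quantile normalization, 0.074 with median centring, -0.081 to 0.10 with a library left out), Nqo1 (-0.33 to 0.148 with a library left out) and Txnrd1 (-0.249 to 0.023). With GSK805 against vehicle, where 5 members were called, 2 were called with no filter, 3 with quantile normalization, 3 with median centring and 2 with only the groups compared. With each library left out, 2 to 6 were called, with 2 without vehicle replicate 2, 3 without vehicle replicate 3 and 3 without GSK805 replicate 1. All genes called there went from 3076 to 2197 of 29522 with no filter, 2371 with quantile normalization and 2760 with median centring. They went to 2247 of 12784 with only the groups compared, and to between 2107 and 3009 with a library left out. With the combination against ILA, where 2 members were called, 1 was called with no filter and 1 to 2 with a library left out, with 1 without ILA replicate 1 and 1 without replicate 1 of the combination. All genes called in that comparison went from 2507 to 1775 of 29522 with no filter. With a library left out they were between 1604 and 2165, the lowest without replicate 3 of the combination. For the interaction, 2 members were called with voom in place of 1, and all genes called went from 1871 to 2583 of 13072 with voom. They went to 1067 with no filter and to between 1201 and 1974 with a library left out. Among these were 1232 without vehicle replicate 3, 1206 without GSK805 replicate 1 and 1201 without replicate 3 of the combination. The share of calls that were higher was 55.7%, 46.8% and 41.6% for ILA added to GSK805 (deposited scale, quantile normalization, median centring) and 37.2%, 46% and 63.2% for the interaction. For these results the cause was not tested. Nqo1 and Gclm were not tested with the filter at 5 FPKM.

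Replicate numbers showed no pairing of the samples over all tested genes. Same-numbered samples of different groups deviated with correlations from -0.08 to 0.04. Of 15 samples, counted within each pair of groups compared, 5 correlated best with their own number. With 3 libraries per group, this cannot exclude a pairing that shows in some genes only. With the replicate block, members called were 6 with ILA, 5 with GSK805, 6 with both, 6 for ILA added to GSK805, 4 for GSK805 added to ILA and 1 for the interaction, and genes called were 7793, 3081, 7066, 5343, 2513 and 1975. Depth limits Nqo1 most, with 27 to 37 reads per vehicle library.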

Other observations

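Replicate 1 held the highest value of its group for 7 of the 9 members with vehicle, 7 with GSK805 and 7 with both compounds, and for 4 with ILA. The share of all tested genes with their highest value in that library was 37.7%, 38.4%, 36.1% and 32.5% in the same order. These replicates held 22.2, 23.4, 18.6 and 21.6 M reads.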
